A study of Mus musculus with 13 samples.

Results

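Complexes I to IV of the mitochondrial respiratory chain were followed through the messenger RNAs of their nuclear-encoded subunits in Treg cells and Treg “wannabes”, the cells that transcribe a *Foxp3* reporter-null allele and so lack Foxp3 protein. The genes were taken by symbol: every *Nduf* gene of the a, b, c, s or v series, *Sdha* to *Sdhd*, the *Uqcr* subunit genes of complex III, and every *Cox4* to *Cox8* gene. This gave 66 of the 24417 genes counted, 35 of complex I, 4 of complex II, 8 of complex III and 19 of complex IV. *Ndufa4* was counted with complex IV, of which its protein is now regarded as a subunit in spite of its name. Subunits encoded by mitochondrial DNA were not analysed here, so each value below concerns the nuclear share of a complex, as mRNA and not as protein or respiration.

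Bulk RNA-seq libraries of doubly sorted CD4 T cells from spleen and lymph node of C57BL/6 mice came from 2 experiments, which were counted in separate tables and are compared only within each. In the first, male mice received 1 dose of 4-OHT (4-hydroxytamoxifen, which activates Cre-ERT2) at postnatal day 14 and were analysed at day 21. Its groups were 3 libraries of control Treg cells (Foxp3DTR-GFP/y Cd4creERT2), 3 of rescued Treg cells (Foxp3LSL/y Cd4creERT2) and 2 of male Treg “wannabes” (Foxp3LSL/y Cd4wt). The LSL allele carries a loxP-flanked Thy1.1 reporter and STOP cassette in *Foxp3*, and Cre-ERT2, expressed from *Cd4*, removes it after 4-OHT and so restores Foxp3. In the second, female mice labelled 9 to 11 weeks of age were given diphtheria toxin on 4 occasions, 7, 5, 3 and 1 days before analysis. There, 3 libraries of resting “wannabes” came from Foxp3LSL/WT Cd4wt mice, which keep Treg cells, and 2 of activated “wannabes” came from Foxp3LSL/DTR Cd4wt mice, whose Treg cells express the toxin receptor and are ablated. Both Treg populations carried Cd4creERT2 and were sorted as Foxp3+Thy1.1-, whereas male “wannabes” were Cd4wt and sorted as Thy1.1+Foxp3-. Genotype at *Cd4*, sort gate, state of the mouse and Foxp3 therefore cannot be told apart in any comparison with male “wannabes”. Between rescued and control Treg cells, *Foxp3* allele, late restoration of Foxp3 and state of the mouse cannot be told apart either. Per the study's methods, the female libraries came from 3 and 2 mice and the male libraries are biological replicates.

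Complex I (NADH dehydrogenase) takes electrons from NADH, complex II (succinate dehydrogenase) takes them from succinate in the citric acid cycle, complex III (cytochrome bc1) passes them from ubiquinol to cytochrome c, and complex IV (cytochrome c oxidase) passes them to oxygen. Complexes I, III and IV pump protons, and the gradient drives ATP synthase. Of the nuclear subunits, a core set carries the redox centres or anchors the mitochondrially encoded part, and the others are accessory or, in complex IV, exist as tissue isoforms. Treg cells are known to rely on oxidative metabolism more than effector T cells, which turn to glycolysis when activated.

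Library totals lay between 25556783 and 36659638 counts, and log2 CPM correlated between replicates at a Pearson r of 0.934 to 0.987, lower in the male (at most 0.947) than in the female libraries (at least 0.978). *Foxp3*, the targeted gene, lay at 167 to 252 CPM (a gene's count scaled to a fixed library total) in control and 865 to 1109.7 in rescued Treg cells, against 84.2 to 99.8 in male, 67.3 to 75.1 in resting and 52.8 to 58.2 in activated “wannabes”. The T cell genes *Cd3e* (742 to 1192 CPM) and *Cd4* (389.9 to 1371 CPM) were high in every library, and the B cell gene *Ms4a1* reached at most 0.425 CPM. Summed over 4 genes each, B cell markers lay between 9.80 and 44.0 CPM, myeloid markers between 0.886 and 10.9 and CD8 T or NK cell markers between 12.3 and 34.6. In bulk samples, fewer cells of a type and less RNA per cell cannot be told apart.

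Of the 66 genes, 57 reached a mean of 5 CPM in at least 1 group. Together the 66 took up 0.589% ± 0.0125 of all counts in control Treg cells, 0.581% ± 0.0549 in rescued Treg cells and 0.724% ± 0.0184 in male “wannabes” (SD, n = 3, 3 and 2). In the second experiment the share was 0.439% ± 0.0308 in resting and 0.491% ± 0.00960 in activated “wannabes” (SD, n = 3 and 2). Per kilobase of transcript, the scale on which genes can be set against each other, *Cox4i1*, the regulatory subunit 4 of complex IV, was the most abundant of the 66 in all 5 groups, at 342 ± 38.6 CPM per kilobase in control Treg cells (SD, n = 3). *Uqcrc1*, a core protein of complex III, followed at 248 ± 20.7, then *Cox6a1* at 246 ± 22.1 and *Uqcrh* at 222 ± 22.7, and these 3 did not differ beyond their spread. The iron-sulfur subunit *Sdhb* of complex II stood at 209 ± 13.9 and its membrane anchor *Sdhc* at 23.9 ± 0.179, although both belong to the same complex. In this order 2 genes changed place by more than 13 ranks between the male groups. *Cox5a*, subunit 5a of complex IV, held rank 8 of 66 in control and 7 in rescued Treg cells but rank 46 in male “wannabes”, and *Uqcrfs1*, the Rieske iron-sulfur protein of complex III, held ranks 39, 22 and 55.

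The other 9 genes had group means below 5 CPM. *Cox6b1*, the ubiquitous isoform of subunit 6b, was listed at 0 counts in every library, which allows up to 3 counts, or 8.18e-06% to 1.17e-05% of a library's counts, as counting error only. No count was assigned to it anywhere, although subunit 6b is a regular part of complex IV, so nothing is drawn from this value. The heart and muscle isoforms *Cox6a2* and *Cox8b* and the testis gene *Cox8c* had at most 3 counts in any library. *Cox4i2*, the lung isoform of subunit 4, *Cox7a1*, the heart and muscle isoform of subunit 7a, and *Cox7b2*, a testis isoform, reached at most 0.476, 0.630 and 1.04 CPM, and *Cox6b2*, the testis isoform of 6b, at most 2.30 CPM. *Ndufs5*, a complex I accessory gene with a near-identical copy elsewhere in the genome (99.4% identity), was low but counted in every library, with 40 to 142 counts, or 1.27 to 4.88 CPM. Such copies can take reads away from a gene: 21 of the 66 genes had 1 of at least 90% identity, 21 shared exon bases with another gene, and 32 had neither, *Uqcrfs1*, *Ndufv1*, *Sdhb* and *Sdhc* among them. The ubiquitous partners of the tissue isoforms, *Cox4i1*, *Cox6a1*, *Cox7a2*, *Cox7b* and *Cox8a*, lay far above them in every library, between 34.7 and 435 CPM. Low-count filtering left 62 of the 66 for testing in the male libraries and 59 in the female ones.

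Summed by complex, the level was higher in male “wannabes” than in both Treg populations, and higher in activated than in resting “wannabes”. Complex I summed to 2749, 2515 and 2603 CPM in control Treg cells, 2729.8, 2799 and 2364 in rescued Treg cells and 3220.3 and 3567 in male “wannabes”. Complex II summed to 951, 931 and 904 CPM in control Treg cells, 923, 1019 and 961 in rescued Treg cells and 1184 and 1294 in male “wannabes”. Both Treg populations overlapped each other, and neither overlapped the “wannabes”. Complex III summed to 1053, 1060.2 and 1008 CPM in control Treg cells, 1224, 1199.7 and 1055 in rescued Treg cells and 1236 and 1318 in “wannabes”, without overlap of either Treg population with the “wannabes”. Complex IV summed to 1222, 1065 and 1143 CPM in control Treg cells, 1281, 1286 and 951 in rescued Treg cells and 1302 and 1549 in “wannabes”. Rescued replicate 3 was the lowest rescued library for complexes I, III and IV, and it was the lowest of its group for 48 of the 57 genes above 5 CPM. In the female libraries, complex I summed to 1796, 2069.6 and 1889.7 CPM in resting and 2196 and 2155 in activated “wannabes”. Complex II summed to 874, 931 and 914 CPM in resting and 950.0 and 946 in activated “wannabes”, complex III to 726, 828 and 785 and, in activated cells, 913 and 881, and complex IV to 684, 876 and 747 and, in activated cells, 932 and 905. Both activated libraries lay above all 3 resting ones in complexes I, II, III and IV. Resting replicate 2 was the highest resting library for 51 of the 57 genes and came close to the activated ones.

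**Figure D1:**
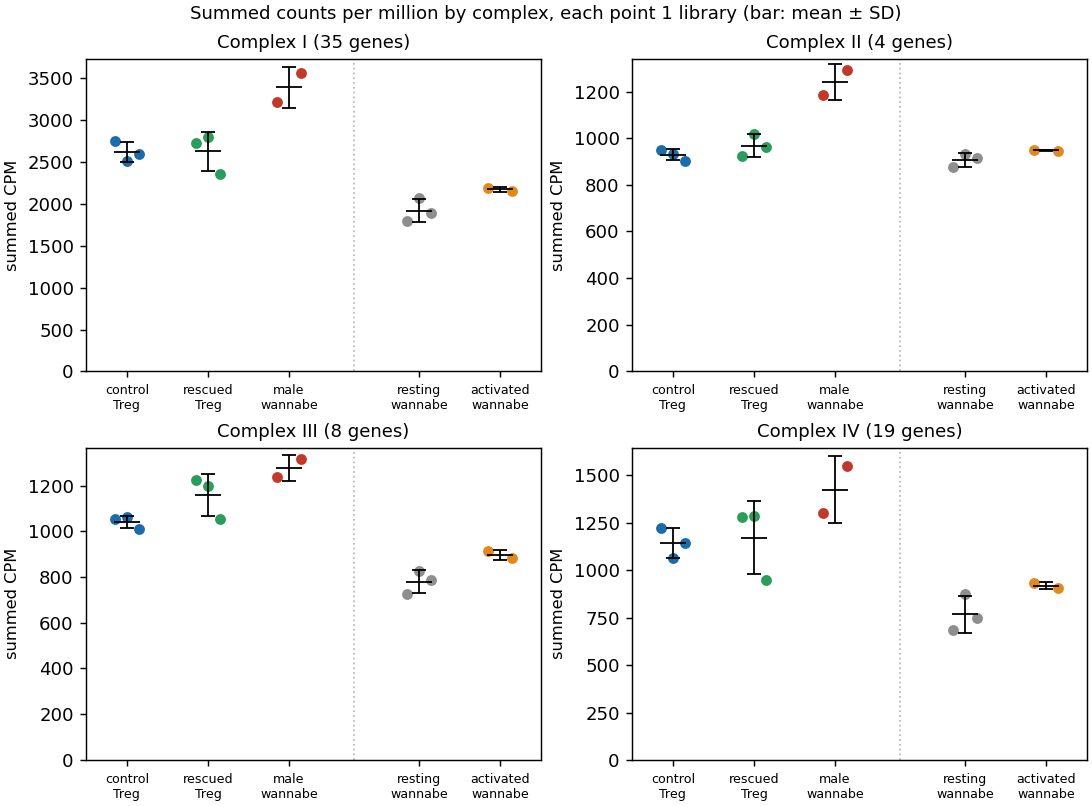
Summed CPM of the genes of each complex (y axis, linear from 0) in each library (1 point each, x axis by group, the dotted line parting the experiments), with bars for the mean ± SD. Male “wannabes” lie above both Treg populations in each complex, for example at 3394 ± 245 against 2622 ± 118 CPM for complex I, and activated “wannabes” lie above resting ones, at 2176 ± 29.1 against 1918 ± 139 CPM.

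Whether rescue in a diseased mouse left respiratory chain transcripts at the level of healthy Treg cells was asked by comparing rescued with control Treg cells. No gene of complexes I to IV passed an adjusted p of 0.05 in either direction (quasi-likelihood test of edgeR, adjusted by Benjamini and Hochberg's method over all 14925 genes), where 1.43% of all genes were called higher and 0.864% lower. At an unadjusted p under 0.05, 1 of the 62 genes tested was higher and none lower, against 9.11% and 6.99% of all genes. DESeq2, fitted to every gene with any count, called none of 65, against 3.77% higher and 2.3% lower of all genes so fitted. The libraries of the groups did not overlap for 4 genes higher in rescued cells and 4 lower, against 12.6% and 11.6% of all genes. The median log2 fold change over the 62 genes was 0.01, with −0.01 for complex I, 0.08 for II, 0.01 for III and 0.07 for IV, against −0.03 over all genes tested. Without rescued replicate 3 it was 0.09, and it was −0.02 after correction for transcript length and GC content, so no direction can be given. Of 12 cell cycle genes none was called either, with a median of 0.61 and sums of 1139 to 1827 CPM in control and 1783 to 2752 in rescued cells, and their part in these values was not tested.

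The gene with the lowest p-value was *Uqcrfs1*, at 109.9, 106 and 95.5 CPM in control and 172, 158 and 116 CPM in rescued Treg cells. Each rescued library lay above each control library, though the third rescued library only just, and the log2 fold change of 0.52 (95% interval 0.11 to 0.93) had an edgeR adjusted p of 0.193. *Uqcrh*, the hinge subunit of complex III, came next, at 129.6, 107 and 128 CPM in control and 161, 160.1 and 129.5 CPM in rescued cells, with a log2 fold change of 0.31 (standard error 0.159, edgeR adjusted p = 0.383). Its groups met at the third rescued library. The other 3 genes whose 3 rescued libraries all exceeded the control ones were *Ndufa10*, *Sdhb* and *Uqcrc1*, with log2 fold changes of 0.24, 0.18 and 0.22, and the 4 with every rescued library below were *Cox7a2l*, *Ndufa5*, *Ndufb4* and *Ndufs4*, between −0.36 and −0.17. For some subunits at high levels the intervals were narrow enough to bound a change. *Ndufv1*, the NADH-binding subunit of complex I, had a log2 fold change of 0.07 (95% interval −0.24 to 0.37). For *Sdha*, the flavoprotein of complex II, it was −0.03 (−0.33 to 0.28), and for *Cox4i1* 0.10 (−0.25 to 0.45). A 2-fold change, a log2 value of 1, lay outside each of these intervals.

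Against male “wannabes”, 2 genes were called higher, and among genes with a group mean of at least 5 CPM they had the largest log2 fold changes. *Uqcrfs1*, whose Rieske protein hands electrons from ubiquinol towards cytochrome c1, lay at 172, 158 and 116 CPM in rescued and 109.9, 106 and 95.5 in control Treg cells, but at 29.0 and 37.3 CPM in male “wannabes”. *Cox5a*, the subunit 5a of complex IV, lay at 157, 138 and 102 and 113, 105 and 110.1 CPM in the Treg populations and at 46.6 and 42.9 CPM in “wannabes”. Every Treg library lay well above both “wannabe” libraries for either gene. *Uqcrfs1* had a log2 fold change of 2.17 (standard error 0.227, edgeR adjusted p = 0.000289) in rescued and 1.65 (standard error 0.222, edgeR adjusted p = 0.00114) in control Treg cells. *Cox5a* had a log2 fold change of 1.56 (standard error 0.210, edgeR adjusted p = 0.000708) in rescued and 1.28 (standard error 0.208, edgeR adjusted p = 0.0026) in control cells. Both genes kept these calls in each of the 8 fits that left out 1 male library and under every alternative tried. In the female experiment the same genes were at 98.9, 108 and 105 and 69.9, 90.1 and 72.1 CPM in resting “wannabes”, levels that were counted in another table and are not compared with the male ones.

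*Uqcrfs1* lies at chr13:30540308-30545362 and *Cox5a* at chr9:57521274-57532426 of GRCm38. *Cox5a* shares 269 exon bases with *Gm26631* on the opposite strand and has a copy, *Gm11633*, of 93.0% identity, and the strand setting of the counting is not given in the sources used here, while *Uqcrfs1* has neither an overlap nor a copy. Their promoter windows are shown because they were the genes that stood apart, beside those of *Ndufv1* and *Sdhb*, which were lower in Treg cells. Each window runs 250 bases before to 50 bases after the transcription start, was read from RefSeq's promoters on GRCm38.p6, and is written 5′ to 3′ on the gene's strand, with the motifs searched in capitals. The windows are chr13:30545267-30545566 on the minus strand, chr9:57520982-57521281 on the plus strand, chr19:4012706-4013005 on the minus strand and chr4:140961021-140961320 on the plus strand.
Uqcrfs1: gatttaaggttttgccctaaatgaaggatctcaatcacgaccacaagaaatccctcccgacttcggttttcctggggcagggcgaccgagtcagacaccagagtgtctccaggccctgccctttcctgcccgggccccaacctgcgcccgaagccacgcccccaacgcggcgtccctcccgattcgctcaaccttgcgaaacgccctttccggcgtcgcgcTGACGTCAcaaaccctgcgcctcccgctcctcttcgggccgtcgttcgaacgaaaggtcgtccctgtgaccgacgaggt
Cox5a: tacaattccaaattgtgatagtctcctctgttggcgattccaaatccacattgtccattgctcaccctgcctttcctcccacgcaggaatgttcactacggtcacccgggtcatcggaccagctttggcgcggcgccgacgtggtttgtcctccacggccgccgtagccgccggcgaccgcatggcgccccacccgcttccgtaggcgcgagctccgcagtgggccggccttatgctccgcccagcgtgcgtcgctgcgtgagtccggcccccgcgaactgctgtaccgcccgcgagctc
Ndufv1: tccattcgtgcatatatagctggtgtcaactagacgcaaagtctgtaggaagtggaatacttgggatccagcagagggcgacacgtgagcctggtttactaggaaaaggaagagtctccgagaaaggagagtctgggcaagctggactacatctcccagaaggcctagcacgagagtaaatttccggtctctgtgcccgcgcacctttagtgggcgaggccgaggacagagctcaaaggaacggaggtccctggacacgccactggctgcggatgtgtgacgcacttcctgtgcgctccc
Sdhb: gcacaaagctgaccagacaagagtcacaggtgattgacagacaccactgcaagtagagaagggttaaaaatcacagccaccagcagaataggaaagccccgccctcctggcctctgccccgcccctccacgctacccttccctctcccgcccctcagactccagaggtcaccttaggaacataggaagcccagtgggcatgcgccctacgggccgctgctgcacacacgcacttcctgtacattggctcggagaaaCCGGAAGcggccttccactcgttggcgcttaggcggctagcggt

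The capitals in *Uqcrfs1* mark a CREB motif (TGACGTCA) that begins 29 bases before RefSeq's start. Those in *Sdhb* mark an ETS motif (CCGGAAG) just after RefSeq's start. For both genes the 5′ end in GENCODE M21 lies upstream of RefSeq's start, so both motifs fall inside the genes as GENCODE draws them. The windows of *Cox5a* and *Ndufv1* held none of the 6 motifs searched on both strands, so the genes that stood apart shared no motif here. Of the 66 genes, 53 had a window in RefSeq's table. The ETS motif was in 11 of these (20.8%), against 9.93% of all windows and 18.2% of the windows of genes tested in the male libraries, and the YY1 motif AAGATGG in 8 (15.1%, against 7.28% and 8.07%), 7 of them of complex I. The NRF1 motif GCGCATGCG was in 5 (9.43%, against 1.95% and 3.67%), *Uqcrc1*, *Uqcr11*, *Ndufa8*, *Ndufa11* and *Cox6a1*, and the CREB motif in 4 (7.55%, against 2.03% and 3.41%). The ERR motif AAGGTCA was in 4 (7.55%, against 5.38% and 4.11%) and TATAAA in 6 (11.3%, against 15.7% and 9.24%). No match overlapped that of another motif. A match describes the letters only and is neither a bound site nor a cause.

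Most of the other genes lay lower in Treg cells than in male “wannabes”, by small amounts. In rescued Treg cells 2 of the 62 genes tested were called higher and 3 lower by edgeR's test, against 10% and 4.06% of all genes, and in control Treg cells 2 were higher and 8 lower, against 9.92% and 6.27%. At an unadjusted p under 0.05, 23 and 26 genes were lower, against 11.7% and 13.3% of all genes, and 2 were higher in each, against 16.3% and 17.9%. With DESeq2's size factors in edgeR's fit the counts were 2 and 5, and 2 and 9. DESeq2's own test called 2 higher and 11 lower in rescued (10.5% and 6.38% of all genes) and 2 higher and 21 lower in control Treg cells (10.9% and 8.22%). Every rescued library lay below both “wannabe” libraries for 41 genes and above them for 3, where 20.7% and 22% of all genes did so, and for control Treg cells these numbers were 42 and 3, against 20.7% and 25.4%. The median log2 fold change was −0.39 in rescued and −0.40 in control Treg cells, against 0.00 and 0.09 over all genes tested. With offsets for transcript length and GC content, described below, it was −0.16 and −0.14. Without these offsets it was of like size in each complex, at −0.41, −0.34, −0.34 and −0.31 for complexes I to IV in rescued and −0.40, −0.47, −0.42 and −0.28 in control Treg cells. These comparisons share the “wannabe” libraries.

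**Figure D2:**
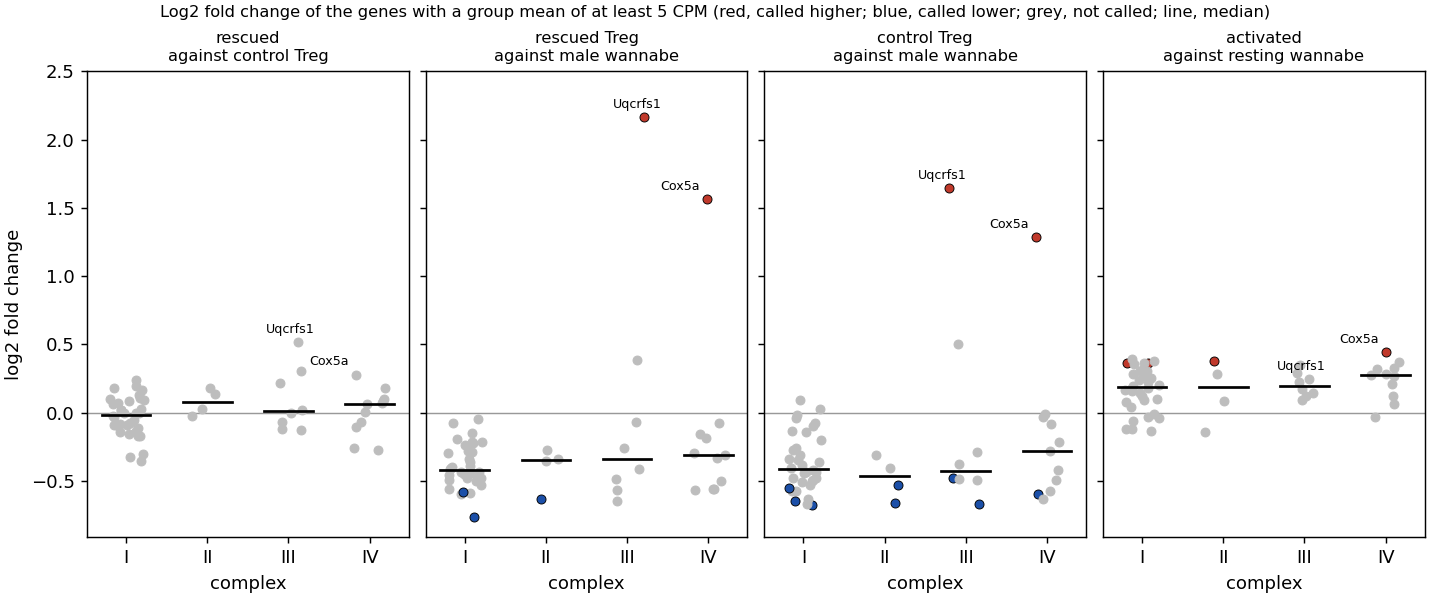
Log2 fold change (y axis) of each gene with a group mean of at least 5 CPM, by complex (x axis), in 4 comparisons, with red points called higher, blue points called lower, grey points not called and a line at the median of the genes drawn. *Uqcrfs1* and *Cox5a* stand at 2.17 and 1.56 in rescued Treg cells against male “wannabes”, while most other genes lie below 0 there and most genes lie above 0 in activated against resting “wannabes”.

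Among the genes called lower, *Sdhc* of complex II and *Ndufv1* of complex I were so in both Treg populations. *Sdhc*, which anchors succinate dehydrogenase in the membrane, lay at 76.4, 75.5 and 75.3 CPM in control and 74.2, 84.0 and 72.7 in rescued Treg cells and at 118 and 122 CPM in male “wannabes”. *Ndufv1* lay at 147, 138 and 143 CPM in control and 158, 143 and 147 in rescued Treg cells and at 204 and 242 CPM in male “wannabes”. Neither gene overlapped between Treg cells and “wannabes”. The log2 fold change of *Sdhc* was −0.64 in rescued and −0.66 in control Treg cells (edgeR adjusted p = 0.0251 and 0.0204), and that of *Ndufv1* was −0.58 and −0.65 (edgeR adjusted p = 0.0272 and 0.0159). *Ndufs6*, an accessory subunit of complex I, was called in rescued Treg cells (log2 fold change −0.76, edgeR adjusted p = 0.04) but has a close copy, *Ndufs6b*. In control Treg cells the other calls were the complex I accessory genes *Ndufb7* (−0.67) and *Ndufv3* (−0.55), *Sdhb* (−0.53), the complex III genes *Uqcrc1* (−0.48) and *Uqcr10* (−0.67), and *Cox4i1* (−0.60), with edgeR adjusted p-values between 0.0255 and 0.0481. *Sdhb* lay at 234, 225 and 256 CPM in control Treg cells and at 338 and 349.9 in male “wannabes”, without overlap. *Cox4i1*, which shares exon bases with *Emc8*, lay at 286, 229 and 249 CPM in control Treg cells and 337 and 435 CPM in “wannabes”, and *Uqcrc1* at 391, 449 and 388 and, in “wannabes”, 552 and 587 CPM.

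Apart from *Uqcrfs1* and *Cox5a*, the core subunits described here, and the complex IV subunits *Cox4i1* and *Cox5b*, had negative log2 fold changes. Most of these did not pass the test. All 7 nuclear core subunits of complex I had negative log2 fold changes in both comparisons, and their libraries did not overlap for 2 of them in rescued and 4 in control Treg cells. *Ndufv1* was the only one of the 7 called, with a median log2 fold change of −0.24 in rescued and −0.26 in control Treg cells over the 7. *Ndufs8*, which holds iron-sulfur clusters near the quinone site, stood at 107 ± 7.07 CPM in control Treg cells, 116 ± 15.3 in rescued Treg cells and 152 ± 26.8 in male “wannabes” (SD, n = 3, 3 and 2), with a log2 fold change of −0.50 in control cells (edgeR adjusted p = 0.089). *Ndufs3* and *Ndufs7* had log2 fold changes between −0.53 and −0.10 over both comparisons. The electron-entry subunit *Ndufv2* and the cluster-rich *Ndufs1* were nearest 0, at −0.15 and −0.05 in rescued and −0.02 and −0.07 in control cells, with 95% intervals in control cells of −0.42 to 0.39 and −0.47 to 0.32. All 4 complex II genes were lower without overlap in both comparisons. *Sdha* had −0.34 and −0.31 and the anchor *Sdhd* −0.27 and −0.41, none of them called by edgeR's test (adjusted p = 0.111 for *Sdhd* in control cells). In complex IV, *Cox5b*, the zinc-binding partner of *Cox5a*, had −0.33 and −0.42, opposite in sign to *Cox5a*, and lay at 73.4, 74.8 and 68.8 CPM in control Treg cells and 88.7 and 105 CPM in “wannabes”. *Ndufa4* lay at 94.6 ± 10.2 CPM in control Treg cells, 88.1 ± 22.1 in rescued Treg cells and 100.3 ± 21.0 in male “wannabes” (SD, n = 3, 3 and 2), which overlap.

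Many lower calls were lost with 1 library fewer, with the direction kept, and counts over all genes moved too. With 1 male library left out, *Sdhc* kept its call in 4 and *Ndufv1* in 3 of 8 fits in rescued Treg cells, and both kept it in 5 of 8 in control Treg cells. Over these fits the log2 fold change of *Sdhc* ran from −0.66 to −0.60 in rescued and −0.69 to −0.63 in control cells, and that of *Ndufv1* from −0.71 to −0.50 and −0.77 to −0.57. The number of genes called lower was 0 in rescued and 2 in control Treg cells without “wannabe” replicate 2, and 9 and 15 without “wannabe” replicate 1, the remaining “wannabe” library then being assumed to vary like the other groups. Without control replicate 2 or 3 it was 0 in control Treg cells, and without control replicate 1 it was 1. Without rescued replicate 1, 2 or 3 it was 0 in rescued Treg cells, and without rescued replicate 1 or 2 it was 5 or 2 in control cells. Without control replicate 3 it was 1 in rescued cells. Over all genes tested, the number called lower ran from 222 to 660 in rescued and from 507 to 929 in control Treg cells in these fits, against 606 and 936 with every library. “Wannabe” replicate 2 was the higher of the pair for 39 of the 57 genes above 5 CPM. *Uqcrb*, a ubiquinone-binding subunit of complex III with a copy of 98.2% identity, lay lower in replicate 2, at 42.0 and 16.7 CPM, against 46.7, 33.5 and 44.7 in control and 39.7, 46.5 and 28.7 in rescued Treg cells.

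Transcript length moved with these changes. Genes of complexes I to IV are short, with a median transcript length of 738.5 bases among the 62 tested, against 2758 bases over all genes tested. Over all genes tested, the median log2 fold change of rescued Treg cells against male “wannabes” climbed with length, from −0.24 below 1 kb through −0.11 at 1 to 2 kb and 0.02 at 2 to 4 kb to 0.17 at 4 kb or more. In control Treg cells these medians were −0.21, −0.03, 0.10 and 0.29. The 40 respiratory genes below 1 kb had medians of −0.41 and −0.42, and the 18 between 1 and 2 kb had −0.32 and −0.32, each lower than all genes of that length. With offsets that remove each library's trend with length and GC content, the medians over the 62 genes were −0.16 in rescued and −0.14 in control Treg cells, with −0.03 and 0.06 over all genes. In that fit *Uqcrfs1*, *Cox5a*, *Sdhc* and *Ndufv1* kept their calls in both comparisons, at log2 fold changes of 2.28, 1.83, −0.68 and −0.43 in rescued cells. The other lower calls were lost, and 3 genes were called lower that had not been, *Ndufa13* and *Ndufs7* in rescued cells and *Uqcrc2* in both. Cytosolic ribosomal protein genes, which are short as well, had medians of −0.67 and −0.50, with 34 and 9 of 78 called lower and none higher. Of all genes tested, 4.06% and 6.27% were called lower and 10% and 9.92% higher. How far RNA length or quality contributes was not tested beyond these fits.

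**Figure D3:**
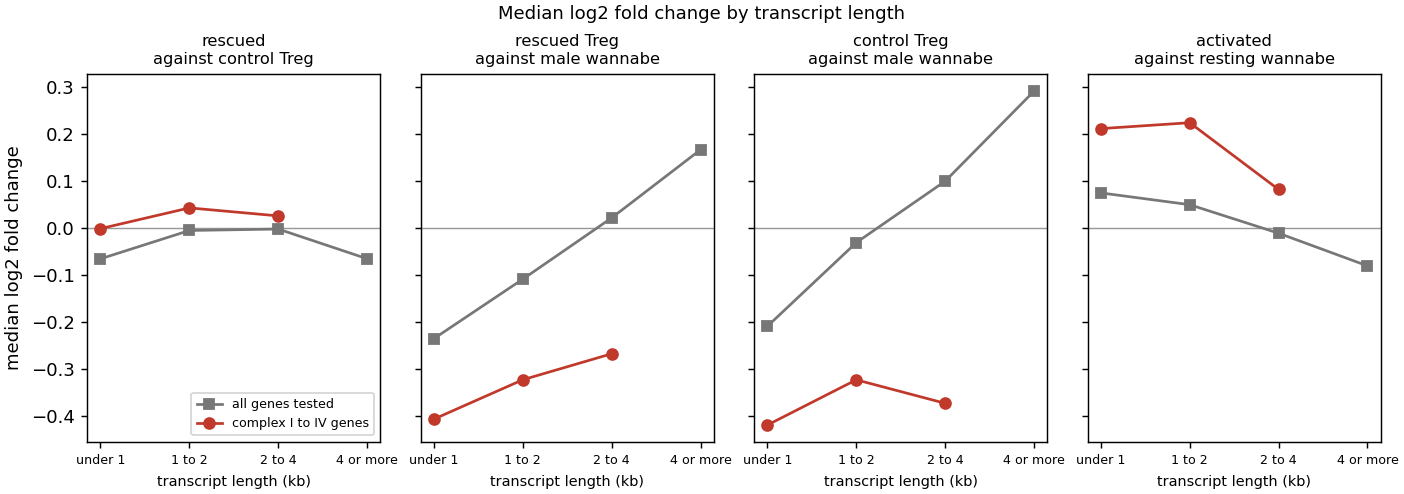
Median log2 fold change (y axis) of all genes tested (grey squares) and of the complex I to IV genes (red circles) by transcript length in kilobases (x axis), in 4 comparisons. Against male “wannabes” the median of all genes climbs with length, from −0.21 to 0.29 in control Treg cells, and the complex I to IV genes lie below it at each length they occupy.

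Markers of other cells and cell cycle genes were read in the same libraries. Both “wannabe” libraries had more *Cd4* mRNA (967 to 1371 CPM) than the Treg libraries (389.9 to 437 in control and 444 to 512 in rescued). B cell markers summed to 34.6 to 44.0 CPM in male “wannabes”, 32.0 to 37.0 in control and 38.1 to 42.1 in rescued Treg cells, with *Ms4a1* at or near 0. Of the 4 myeloid, 4 CD8 T or NK cell and 3 red cell markers tested, *Itgam* was called higher and *Klrb1c* and *Hba-a1* lower in control Treg cells than in male “wannabes”, and none was called in rescued Treg cells, with red cell markers summing to 3.38 to 11.8 CPM in “wannabes”, 2.34 to 6.77 in control and 1.93 to 7.94 in rescued Treg cells. Muscle and adipocyte markers summed to at most 3.77 and 2.52 CPM in any library, and none was called. Of all genes tested, 6.27% were called lower and 9.92% higher in control, and 4.06% lower and 10% higher in rescued Treg cells. Of 12 cell cycle genes, 7 were called lower and none higher in control Treg cells, and 3 lower and 1 higher in rescued Treg cells, with medians of −1.30 and −0.80. Their sum was 2198 to 3786 CPM in “wannabes” against 1139 to 1827 and 1783 to 2752, and their part in the values above was not tested.

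**Figure D4:**
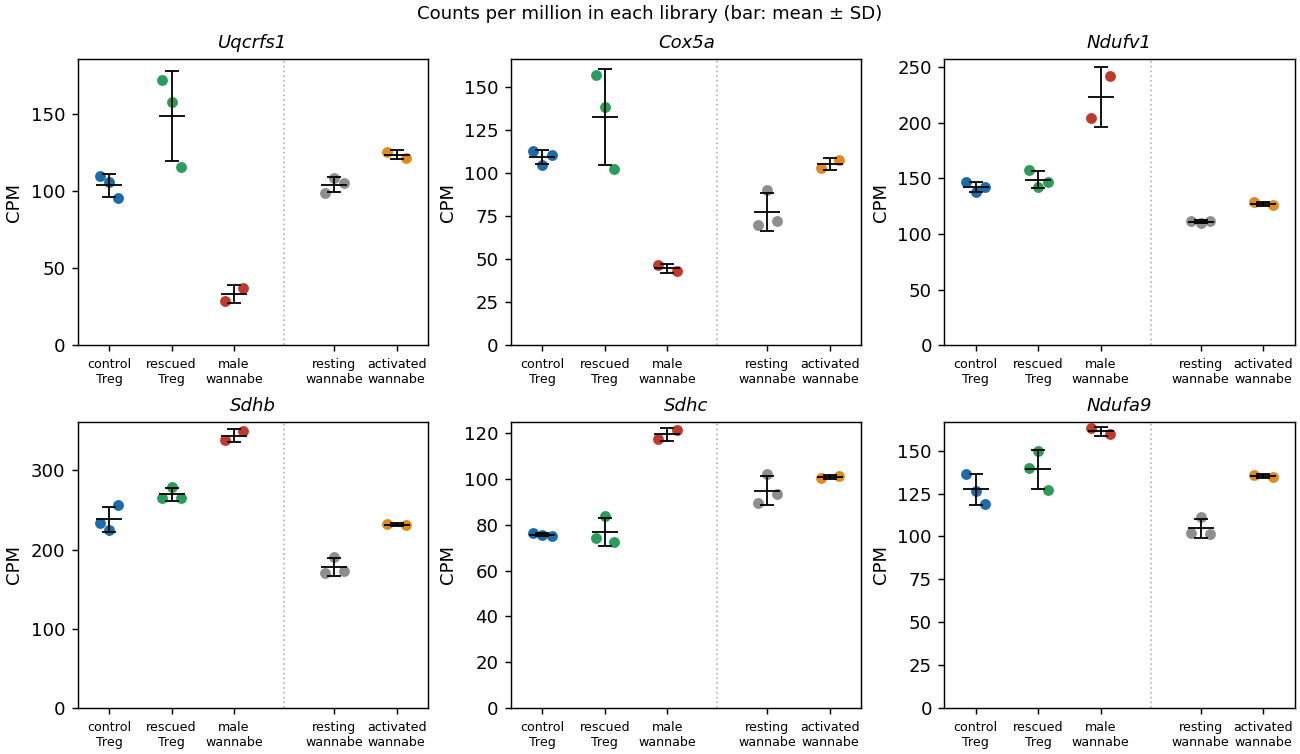
CPM of 6 genes (y axes, linear from 0) in each library (1 point each, x axis by group, the dotted line parting the experiments), with bars for the mean ± SD. Among the male libraries, *Uqcrfs1* and *Cox5a* are lowest in “wannabes”, at 33.1 ± 5.83 and 44.8 ± 2.63 CPM, where *Ndufv1*, *Sdhb* and *Sdhc* are highest, at 223 ± 26.9, 344 ± 8.33 and 119.6 ± 2.89 CPM.

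Whether activation in a sick mouse moved these genes in cells that lack Foxp3 was asked by comparing activated with resting “wannabes”. Of 59 genes tested, 4 were called higher and none lower, against 11.3% and 11.2% of all 13166 genes. *Sdhb* lay at 170.1, 191 and 174 CPM in resting and 233 and 231 CPM in activated “wannabes”, and *Ndufa9*, an accessory subunit of complex I near its quinone site, at 102, 111 and 101 and 136 and 134 CPM. *Ndufa10*, another accessory subunit of complex I, lay at 85.3, 97.9 and 91.0 and 118 and 117 CPM, and *Cox5a* at 69.9, 90.1 and 72.1 and 103 and 108 CPM. Both activated libraries lay above all resting ones for each of these genes. Their log2 fold changes were 0.38 for *Sdhb*, 0.37 for *Ndufa9*, 0.36 for *Ndufa10* and 0.44 for *Cox5a*, with standard errors of 0.0803, 0.0788, 0.0864 and 0.125 and edgeR adjusted p-values of 0.0205, 0.0213, 0.0288 and 0.0482. DESeq2 called 8 of 64 higher and none lower, against 10.1% and 10.4% of all genes, adding *Cox4i1*, *Ndufb7*, *Sdhd* and *Uqcrfs1*.

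Most genes had small positive log2 fold changes, 49 of the 59, and 10 had negative ones. At an unadjusted p under 0.05, 19 of the 59 genes were higher and none lower, against 18.6% and 19.5% of all genes. Activated libraries lay above all resting ones for 35 of the 59 genes and below them for 1, where 27.9% and 28.6% of all genes did so. The gene that lay below was *Sdha*, the catalytic subunit of complex II, at 492, 497 and 517 CPM in resting and 453 and 458 CPM in activated “wannabes” (log2 fold change −0.14, edgeR adjusted p = 0.177). The median log2 fold change was 0.21 over the 59 genes, and 0.18, 0.19, 0.20 and 0.28 for complexes I to IV, against −0.01 over all genes tested. For all genes below 1 kb it was 0.08, and with the length and GC offsets it was 0.16 over the 59 genes, which left the 4 calls as they were. Among genes that were not called, the complex I core gene *Ndufs1*, its largest iron-sulfur subunit, had a log2 fold change of 0.08 (95% interval −0.09 to 0.24). *Cox4i1* of complex IV had 0.33 (0.09 to 0.56), and the edgeR adjusted p-values were 0.444 and 0.056.

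The count of calls hung on single libraries. It was 21 higher without resting replicate 2, 2 without replicate 1 and 1 without replicate 3, while it was 0 without either activated library, the other then being assumed to vary like the resting ones. Over all genes tested, the number called higher moved in the same fits, from 1489 with every library to 1651 without resting replicate 2, 1515 without replicate 1, 1204 without replicate 3 and 476 and 472 without activated replicate 1 and 2. The median stayed between 0.18 and 0.28 in these fits. All 12 cell cycle genes were called higher in activated “wannabes”, where 11.3% of all genes were. Their median log2 fold change was 1.77, with sums of 1204 to 1462 CPM in resting and 2994 to 3176 CPM in activated “wannabes”. B cell markers summed to 9.80 to 12.1 CPM in resting and 22.4 to 24.6 in activated “wannabes”, of which *Cd79b* was called higher (1.34, edgeR adjusted p = 0.00193) with *Ms4a1* at or below 0.425 CPM. Their part in the respiratory genes' values was not tested.

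**Figure D5:**
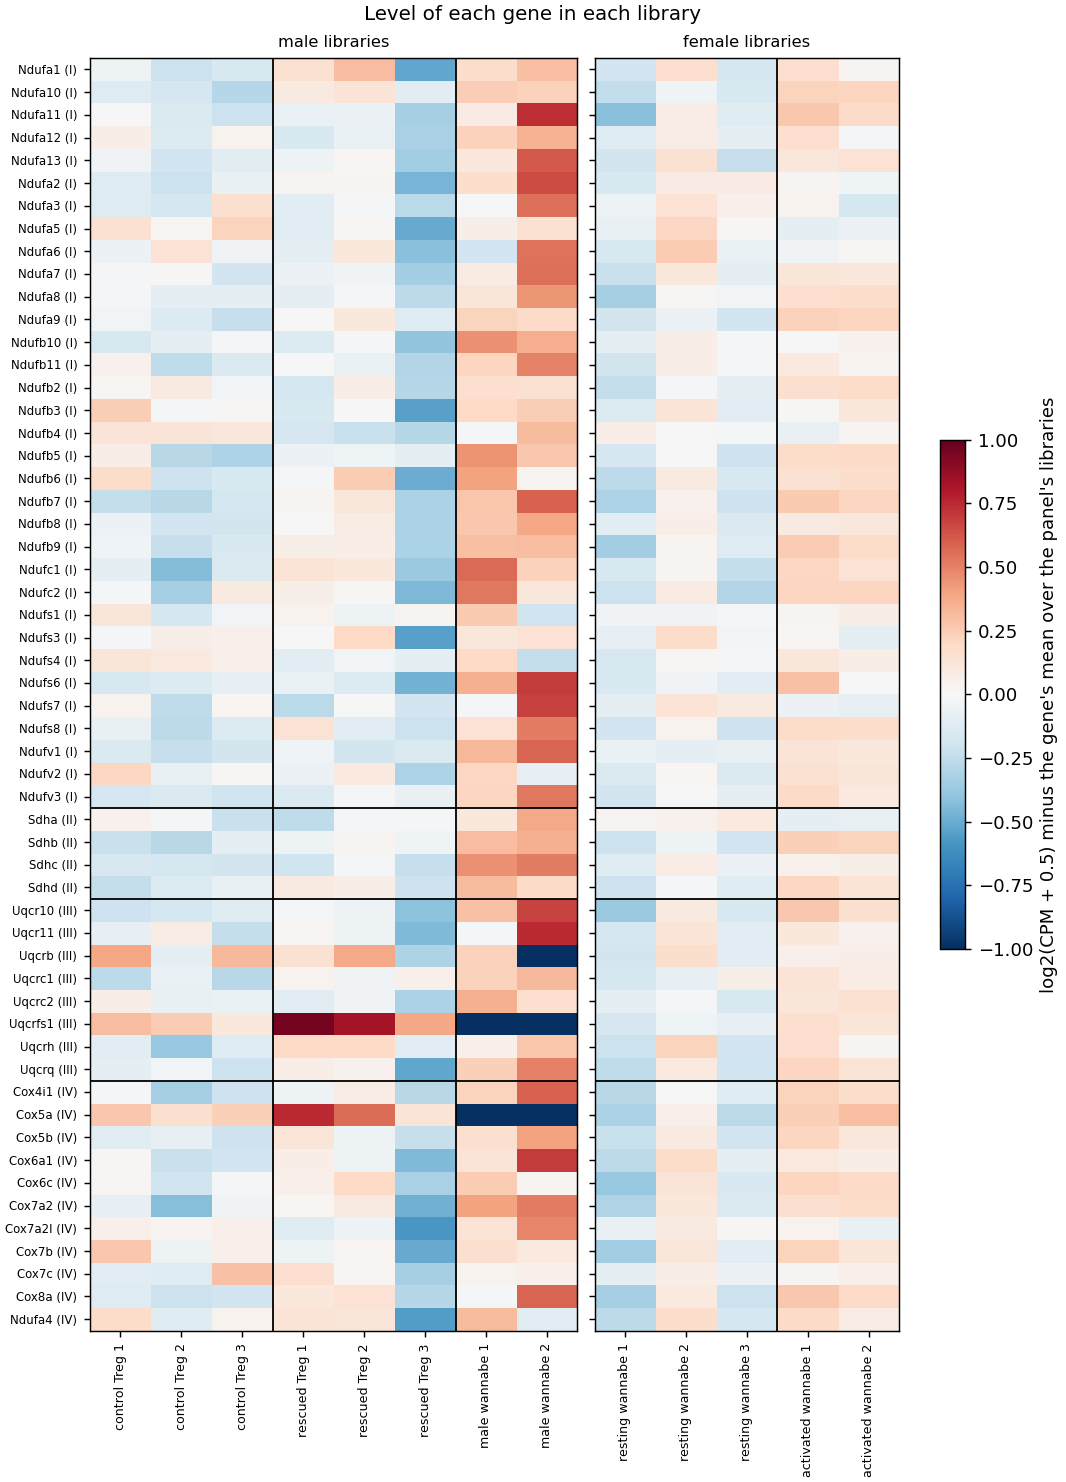
Level of 56 of the 57 genes with a group mean of at least 5 CPM (rows, complex in brackets) in each library (columns), as log2(CPM + 0.5) minus the gene's mean over the libraries of its panel, the colour scale ending at −1 and 1. Male “wannabes” are red for most genes and dark blue for *Uqcrfs1* and *Cox5a*, rescued replicate 3 is blue for most genes, and activated “wannabes” are red for most genes.

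The changes from control to rescued Treg cells and from resting to activated “wannabes” were then set against each other over all 13 libraries, as the difference of the changes. None of the 62 genes tested differed at an adjusted p of 0.05 in edgeR's fit (0.803% of all genes higher and 0.73% lower) or at an unadjusted p under 0.05 (7.12% and 6.66%), and DESeq2 called none of 65 (2.08% and 1.84%). The median difference was −0.18, against −0.03 over all genes, and it was −0.060 without rescued replicate 3. The lowest p-values were those of *Uqcrc2*, a core protein of complex III, with a difference of −0.34 (95% interval −0.69 to 0.02, edgeR adjusted p = 0.395), and *Cox7b* of complex IV, with −0.52 (−1.08 to 0.03, edgeR adjusted p = 0.398). *Uqcrc2* lay at 211, 191 and 192 CPM in control, 186, 196 and 162 in rescued, 148, 155 and 141 in resting and 171 and 175 in activated cells, so the Treg populations overlapped and the “wannabe” populations did not. A difference as large as the median change of activated “wannabes”, 0.21, lay inside the 95% interval of *Uqcrfs1* (−0.21 to 0.78) and outside those of *Uqcrc2* and *Cox7b*. Whether a difference of this size could be detected over the 62 genes was not tested.

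Genes that work with the complexes were followed as lists. Of 46 assembly factors tested, which build the complexes and are not part of them, 5 were called higher and none lower in rescued Treg cells against male “wannabes”, and 6 higher and 1 lower in control Treg cells, with medians of −0.14 and −0.03. Of all genes tested, 10% were called higher and 4.06% lower in rescued and 9.92% higher and 6.27% lower in control Treg cells, so the counts of assembly factors called higher lay near the share of all genes. Higher in both were *Cox11* (2.51 and 1.92), a copper chaperone of complex IV, *Cox18* (1.85 and 1.46), which inserts a complex IV subunit, *Sdhaf1* (2.93 and 2.10), which serves the iron-sulfur subunit of complex II, *Lrpprc* (1.71 and 1.52), which stabilises mitochondrial mRNAs, and *Tmem70* (2.23 and 2.01), as log2 fold changes with edgeR adjusted p-values between 0.000921 and 0.0114. In control cells *Ndufaf6* (1.24) was also higher and *Coa5* (−0.66) lower. *Cyc1*, the cytochrome c1 of complex III, whose symbol the *Uqcr* pattern does not take in, was higher as *Uqcrfs1* was, at 152 to 193 CPM in rescued and 137 to 153 in control Treg cells against 53.5 to 74.8 in male “wannabes” (log2 fold changes 1.40 and 1.20, edgeR adjusted p = 0.00093 and 0.00292). *Ndufab1*, the mitochondrial acyl carrier protein and a complex I subunit, did so too (0.90 and 1.12, edgeR adjusted p = 0.0233 and 0.00831). The ADP/ATP carrier *Slc25a4* went the other way, as *Slc25a5* did in control cells (−0.53). *Slc25a4* had log2 fold changes of −0.60 and −0.99 in rescued and control cells (edgeR adjusted p = 0.0258 and 0.00219). Between rescued and control Treg cells none of the 46 assembly factors was called, nor any of 8 genes for cytochromes, carriers and channels.

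ATP synthase, the citric acid cycle and mitochondrial ribosomes were followed in the same way, against the shares of all genes just given and, in activated “wannabes”, 11.3% called higher and 11.2% lower. Of 17 ATP synthase genes tested, none was called higher and 2 were called lower in either Treg population against male “wannabes”, *Atp5g1* and *Atp5o* in rescued and *Atp5g1* and *Atp5a1* in control cells, with medians of −0.33 and −0.32. In activated “wannabes” *Atp5c1* (0.42) and *Atp5f1* (0.31) were called higher, with a median of 0.22. Of 14 citric acid cycle genes, *Idh2* was called higher in rescued Treg cells than in male “wannabes” (1.16) and *Idh3g* lower (−0.55). In control cells 3 of the 14 were called lower and none higher, *Cs* and *Idh3g* among them (−0.59 and −0.48), and 2, *Idh2* and *Cs*, were higher and none lower in activated “wannabes” (0.55 and 0.31), the former making NADPH and the latter citrate. Of 77 mitochondrial ribosomal protein genes, 7 were called higher and 1 lower in rescued and 7 higher and none lower in control Treg cells against male “wannabes”, and 5 higher and 2 lower in activated “wannabes”. The shares of mitochondrial ribosomal protein genes called higher lay near or below those of all genes. None of these lists, nor that of cytosolic ribosomal protein genes, held a gene called between rescued and control Treg cells. Of 46 assembly factors in activated “wannabes”, *Foxred1* (0.42) was higher and *Ndufaf4* (−0.44) lower. Of the 8 genes for cytochromes, carriers and channels, 4 were higher and none lower, where 11.3% of all genes were higher. These were *Slc25a4* (0.91), *Slc25a5* (0.33), *Cycs* (0.43) and *Vdac3* (0.34).

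Of the regulators of mitochondrial gene expression called, *Hif1a* had the largest log2 fold changes, 2.87 in rescued and 2.00 in control Treg cells against male “wannabes”. *Hif1a*, which under low oxygen favours glycolysis over respiration, lay at 67.9 to 92.5 CPM in male “wannabes”, 291 to 349 in control and 569 to 613 in rescued Treg cells, and it was the only 1 of 15 regulators called between rescued and control Treg cells (0.88, edgeR adjusted p = 0.014). *Gabpb1*, a subunit of the ETS factor GABP, was higher than in male “wannabes” in both Treg populations (0.78 and 0.72, edgeR adjusted p = 0.0128 and 0.018), and *Myc* was lower in rescued cells (−0.78, edgeR adjusted p = 0.0312). *Nrf1*, *Gabpa*, *Esrra* and *Yy1*, whose motifs were searched above, and *Tfam*, which packages mitochondrial DNA, were called in no comparison. The nearest of them was *Yy1*, with log2 fold changes of 0.89 and 0.94 against male “wannabes” (edgeR adjusted p = 0.0856 and 0.0639). *Ppargc1b*, *Gabpb2*, *Tfb1m* and *Polrmt* were not called either. In activated “wannabes” *Pprc1* (−0.36) and *Tfb2m* (−0.47) were lower, and *Ppargc1a*, the coactivator PGC-1α, was at most 2.57 CPM in any library and was not called.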

How the data were processed

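Libraries of doubly sorted T cells were made from 2 ng of total RNA with SMART-Seq v4 and KAPA Hyper Prep kits and sequenced on a HiSeq 4000. The authors deposited raw counts of reads per gene, 1 table per experiment, after aligning reads with STAR 2.7.3a to GRCm38 and realigning them locally with GATK; per the study's methods, counting was done in R and DESeq2 1.28.1 was used downstream. Gene annotation and strand setting are not given in the sources used here. Totals were 25556783 to 36659638 counts in the 8 male and 28059854 to 31462226 in the 5 female libraries. The 4 entries with no gene name (0.0042% to 0.0084% of counts) were left out. The floor of 3 counts covers counting error only, whereas standard errors and 95% intervals come from the fits and include the spread between libraries.

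Groups were taken from the sample labels. Genes passing edgeR's filterByExpr were fitted with edgeR 4.0.16 (R 4.3.3), TMM scaling and the quasi-likelihood test, over the 8 male libraries (3 groups), the 5 female libraries and, for the difference of changes, all 13. P-values were adjusted by the Benjamini-Hochberg method over all genes fitted, and an adjusted p under 0.05 was called. Levels are CPM by TMM library size, and fold changes are those of edgeR's fit at its default prior count. A prior count of 2 was used only for log2 CPM, in the correlations between libraries and in the length and GC offsets. Lengths come from GENCODE M21, which 23651 of 24417 genes (96.9%) matched. The lists of pathway genes and cell markers, and the 66 genes themselves, were chosen with earlier results of these data known. Single genes were named if they were core subunits, the complex IV subunits *Cox4i1*, *Cox5a* and *Cox5b*, tissue isoforms and their partners, *Ndufa4*, or genes with at most 3 counts. Also named were up to 3 called in each direction per complex and comparison, or the 2 with the lowest p where none was called. Of a list, the 2 called in each direction with the lowest adjusted p and all regulators were named, and others called were added after their values were seen, as were genes whose libraries did not overlap between rescued and control Treg cells or between activated and resting “wannabes”, *Uqcrb*, and the genes holding a motif. A few genes that these rules would name, 1 of them a row left out of the heat map, are not reported here.

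Alternatives were DESeq2 1.42.0, its size factors in edgeR, no low-count filter, a mean CPM of at least 10, offsets for transcript length and GC content (lowess span 0.3), a replicate block, only the populations compared, and each library left out in turn. Numbers and shares given for DESeq2 are over all genes with any count in the libraries fitted, low counts included, and so rest on more genes than edgeR's. The scripts were tested on simulated data with known changes. Near-identical copies were sought at 90% identity or more over 200 bases or more. Promoter windows are RefSeq's for GRCm38.p6, and 53 of the 66 genes matched. Figures were drawn with matplotlib 3.10.9.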

Additional observations from a re-analysis of the deposited data

How the results depend on the processing

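Counts of genes called changed with the test, and medians against male “wannabes” moved most with the length and GC offsets. Genes called lower against male “wannabes” numbered 11 in rescued and 21 in control Treg cells with DESeq2, where 6.38% and 8.22% of all genes were. As reported, they numbered 3 and 8, where 4.06% and 6.27% of all genes were called lower. They numbered 5 and 3 with the length and GC offsets, and 0 and 3 with the replicate block. In rescued cells they also numbered 5 with DESeq2's size factors and 0 when only the populations compared were fitted. Genes called higher in activated “wannabes” numbered 8 with DESeq2 (10.1% of all genes), against 4 as reported (11.3%). They numbered 7 among genes of a mean CPM of at least 10 and 0 with the replicate block. Numbers of all genes called in the other fits are not given here, so these counts are not read as particular to the respiratory genes. The median against male “wannabes” was −0.16 in rescued and −0.14 in control Treg cells with the length and GC offsets, against −0.39 and −0.40. The cause of these shifts was not tested.

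With 1 library left out, the median ran from −0.03 to 0.09 in rescued against control Treg cells, from −0.46 to −0.30 in rescued and −0.46 to −0.33 in control Treg cells against male “wannabes”, from 0.18 to 0.28 in activated against resting “wannabes” and from −0.27 to −0.060 for the difference of changes. Genes called lower ran from 0 to 9 in rescued and from 0 to 15 in control Treg cells against male “wannabes”, genes called higher stayed at 2 in rescued and ran from 2 to 3 in control cells, and genes called higher in activated “wannabes” from 0 to 21. Over all genes tested, these counts ran from 222 to 660 and from 507 to 929 lower and from 472 to 1651 higher. None of the 66 genes was called in rescued against control Treg cells or for the difference of changes in any fit. Where a group was left with 1 library, that library was assumed to vary like the others. Samples that share a replicate number had deviations that correlated at −0.0292 to 0.0845, and those that do not at −0.129 to 0.0741. No pairing by number was seen, though groups of 2 or 3 libraries cannot exclude it, and the block is given here only. No call changed direction under an alternative. Among values of named genes under alternatives, 174 stayed on their side of the threshold, 67 moved past it and 95 no longer passed it.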
